A study of Canis lupus familiaris with 20 samples.

Results

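KDR, the main signalling receptor for vascular endothelial growth factor (VEGF), and VEGFA, its principal ligand, were followed in the muscle of dystrophic and normal dogs. The members are all probes that the array files name KDR or VEGFA, which gave 3 of the 42034 probes on the array: 1 for KDR and 2 for VEGFA. They were chosen by their place in blood vessel signalling and by their log2 ratios in affected, escaper and normal dogs, which were already known. Their levels and differences are therefore a description, without a test.

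The samples were total RNA of muscle from 4 affected dogs, 2 escaper dogs and 4 normal dogs, all aged 2 years. Affected and escaper dogs are both labelled as having Duchenne muscular dystrophy, a disease of muscle that lacks dystrophin. Escapers carry the disease and have a milder form of it. The labels name neither the muscle nor the mutation. Each dog was hybridised on 2 arrays against RNA of 1 normal individual, once in Cy5 and once in Cy3, and the 2 log2 ratios of dog over this common reference were averaged.

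VEGFA is secreted by many cell types, muscle fibres among them, and binds KDR on the endothelial cells that line vessels. Binding makes KDR phosphorylate itself and start signals for division, migration, survival and permeability. The related receptor FLT1 binds VEGFA tightly with weak signalling and can act as a decoy, and the neuropilins NRP1 and NRP2 are co-receptors. Low oxygen raises VEGFA through the factor HIF1A. In muscle, PPARGC1A also drives VEGFA, together with the nuclear receptor ESRRA.

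The probe sequences are shown because each level below rests on the transcript stretch that its probe reads. The KDR probe and the dimmer VEGFA probe are 60 bases long, and the coordinates in the array files place their ends 1826 and 2301 bases apart, so both cross at least 1 intron. The KDR probe is listed at chr13:50375162-50376987 on the minus strand and the dimmer VEGFA probe at chr12:15224402-15226702 on the plus strand, in a build that the files do not name. Capitals mark the codons of the single forward frame without a stop codon, and letters are 5′ to 3′.
KDR probe: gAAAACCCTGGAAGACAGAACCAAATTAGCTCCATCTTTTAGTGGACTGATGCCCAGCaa
VEGFA dimmer probe: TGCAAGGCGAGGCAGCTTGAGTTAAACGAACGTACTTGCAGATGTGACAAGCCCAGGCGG
The brighter VEGFA probe lies downstream at chr12:15228074-15228133 on the plus strand, within 60 contiguous bases. The files list 3 RefSeq transcripts for each VEGFA probe and 1 for the KDR probe, so neither VEGFA probe tells these transcripts apart.

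The KDR probe and the brighter VEGFA probe passed the background test of the scanner software on 20 of 20 arrays. Neither was saturated or flagged on any. The raw KDR signal of the dog was a median of 8.66 times its local background on arrays of affected dogs, 14.2 times on those of escapers and 18.9 times on those of normal dogs. The brighter VEGFA probe stood at 46.6, 45.5 and 70.1 times background in the same groups. The dimmer VEGFA probe passed on 9 of 20 arrays, namely 1 of 8 of affected dogs, 1 of 4 of escapers and 7 of 8 of normal dogs. It is given for completeness, and VEGFA below means the brighter probe unless the dimmer one is named.

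Affected 1 and escaper 2 stood apart from the other dogs over the 16008 probes tested. The log2 ratios of affected 1 correlated with those of the other dogs at r between −0.19 and −0.01, and those of escaper 2 at r between −0.24 and 0.42. The 28 pairs among the other 8 dogs gave r between 0.20 and 0.86. In both dogs the 2 arrays in opposite dyes correlated, at r = 0.87 in affected 1 and r = 0.94 in escaper 2. The lowest such r of any dog was 0.63, in affected 4. Of the 10 tested fibre markers, MYL1 and TNNI2 were saturated on 20 of 20 arrays, TNNT3 on 19 and TNNC1 on 17, so their ratios are not exact. Over the other 6, a choice made after seeing the data, the median log2 ratio was lowest in these 2 dogs, at −1.36 in affected 1 and −1.99 in escaper 2, against −0.11 to 0.95 in the other dystrophic dogs. Differences of KDR and VEGFA are given with and without these dogs. Those of listed genes are given without escaper 2 in the escaper comparisons, and without affected 1 in affected minus normal where that moved them by over 1.5 times. For some genes escaper minus affected is also given without affected 1.

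KDR was lower in affected muscle than in normal muscle, by about 2.00-fold, and was not lower in escaper muscle on average. Its log2 ratio to the reference was 0.19, −0.15, 0.24 and 0.74 in affected dogs 1 to 4, 0.84 and 1.71 in escapers 1 and 2, and 1.04, 1.24, 1.34 and 1.40 in normal dogs 1 to 4. Every affected dog lay below every escaper and every normal dog, while the escapers lay on either side of the normal dogs. The group means were 0.25 ± 0.37 in affected dogs (SD, n = 4), 1.28 ± 0.61 in escapers (SD, n = 2) and 1.25 ± 0.16 in normal dogs (SD, n = 4).

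**Figure D1:**
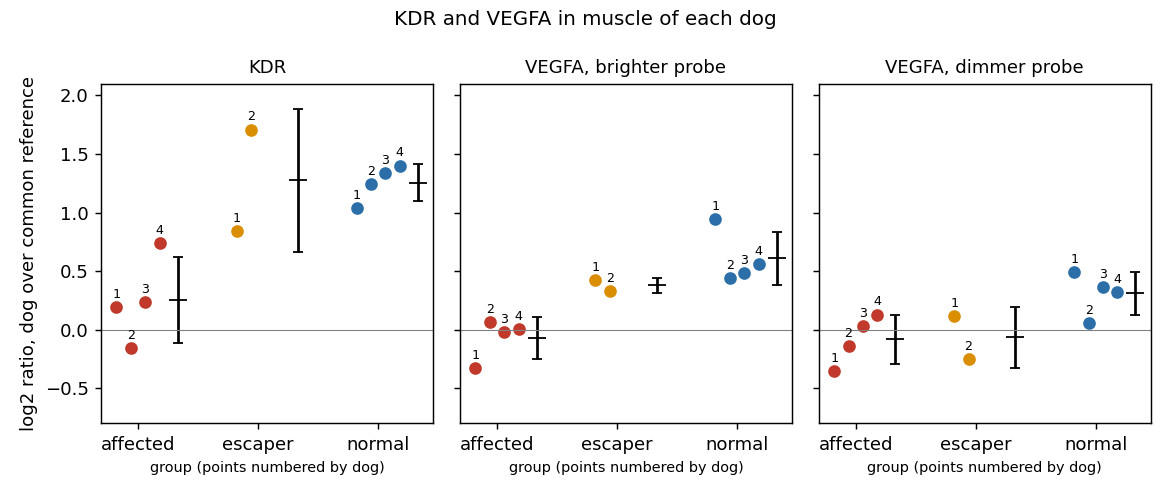
Log2 ratio of dog over common reference for KDR and both VEGFA probes (y axis) in affected, escaper and normal dogs (x axis). Points are dogs, numbered as in the text, and bars give the mean ± SD. KDR in the 4 affected dogs lies at or below 0.74 and in the 4 normal dogs at or above 1.04.

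The affected minus normal difference of KDR was −1.0 on the log2 scale (SE 0.23), and the gap between the highest affected and the lowest normal dog was 0.30. Of all tested probes, 7.42% had every affected dog below every normal dog, and 2.35% had a larger negative difference than KDR. The limma test across all probes is given as background and not as a test of the members. In this comparison 3 of 16008 probes passed it (0.0187%), none of them a member, with 1992 at an unadjusted p under 0.05 (12.4%). On the processed signals of the scanner the difference was −1.53, and without affected 1 it was −0.98.

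Both escapers lay above all 4 affected dogs for KDR. The escaper minus affected difference was 1.02 (SE 0.28), a 2.03-fold higher mean, with a gap of 0.11 between escaper 1 and affected 4. The groups overlapped with median centring and in Cy3 alone. Of all tested probes, 3.69% had both escapers above every affected dog, and 1.81% had a larger positive difference. The size rests on escaper 2, since the difference was 0.59 without that dog and 1.46 without escaper 1. Without affected 1 it was 1.0. No probe passed the limma test in this comparison (0%), against 835 at an unadjusted p under 0.05 (5.22%).

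Between escapers and normal dogs the KDR means differed by 0.02 (SE 0.28), and the dogs overlapped. The mean conceals a split: without escaper 2 the difference was −0.41, and without escaper 1 it was 0.45. In the order of means, escapers and normal dogs are neighbours within their spread, and affected dogs come last. The escapers shared 1 slide, so slide and escaper group cannot be told apart. No slide held 2 groups, and the slide means of KDR were 0.02 and 0.49 on the 2 slides of affected dogs against 1.14 and 1.37 on the 2 slides of normal dogs.

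VEGFA showed the same order of affected and normal dogs with a smaller difference. Its log2 ratio was −0.33, 0.07, −0.02 and 0.00390 in affected dogs 1 to 4, 0.43 and 0.33 in escapers 1 and 2, and 0.94, 0.44, 0.49 and 0.56 in normal dogs 1 to 4. The affected dogs lay lowest, the escapers between and the normal dogs highest, with no overlap between any pair of groups. Of all tested probes, 7.42% had every affected dog below every normal dog. Both escapers lay above every affected dog for 3.69% and below every normal dog for 15.7%. The escapers overlapped the normal dogs in Cy5 alone and in Cy3 alone, and overlapped the affected dogs in Cy5 alone and with median centring. Means were −0.07 ± 0.18 in affected dogs (SD, n = 4), 0.38 ± 0.07 in escapers (SD, n = 2) and 0.61 ± 0.23 in normal dogs (SD, n = 4).

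The affected minus normal difference of VEGFA was −0.68 (SE 0.15), a 1.60-fold lower mean, with a gap of 0.37 between the groups. Of all tested probes, 5.28% had a larger negative difference. Without affected 1, the dog with the lowest VEGFA, the difference was −0.59. The escaper minus affected difference was 0.45 (SE 0.19), a 1.36-fold higher mean, and was 0.36 without affected 1 and 0.50 without escaper 2. It came to 0.12 when arrays were centred on the median in place of loess, a choice that moved the median of all tested probes in this comparison to −0.18. As reported, 11.7% of all tested probes had a larger positive escaper minus affected difference than VEGFA.

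The escaper minus normal difference of VEGFA was −0.23 (SE 0.19). The gap between the highest escaper and the lowest normal dog was 0.0147, smaller than the SD of either group (0.07 in escapers and 0.23 in normal dogs). The difference itself was about the SD of normal dogs and larger than that of escapers, which rests on 2 dogs. Escapers and normal dogs are therefore given as neighbours in the order. Of all tested probes, 15.7% had both escapers below every normal dog, and 27.9% had a larger negative difference than VEGFA. No probe passed the limma test in this comparison (0%), and 2953 had an unadjusted p under 0.05 (18.4%). Without escaper 2 the difference was −0.18. With median centring it was −0.59, and the median of all tested probes was then −0.17.

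The dimmer VEGFA probe read −0.35, −0.14, 0.03 and 0.13 in affected dogs 1 to 4, 0.12 and −0.25 in escapers 1 and 2, and 0.50, 0.06, 0.37 and 0.32 in normal dogs 1 to 4. All 3 groups overlapped. Its affected minus normal difference of −0.39 (SE 0.16) had the sign of the brighter probe, but the 2 probes disagreed on the escapers, for which the dimmer one gave 0.02 (SE 0.19) against affected dogs. The processed signals gave −1.80 and the deposited table −1.75 for affected minus normal of this probe, while a normexp offset of 16 gave −0.46. The cause of the gap was not tested.

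The swapped dyes gave the same sign of the affected minus normal difference for both genes. The 2 arrays of a dog differed by a median of 0.16 for KDR and 0.21 for VEGFA on the log2 scale, and by at most 0.46 and 0.35. The 0.35 was in escaper 2, whose VEGFA read 0.50 in Cy3 and 0.16 in Cy5. The escaper minus normal difference of VEGFA was −0.23, so its size is within these dye differences. With the dogs in Cy5 alone the affected minus normal difference was −1.10 for KDR and −0.66 for VEGFA, and in Cy3 alone it was −0.90 and −0.70. The plot of differences by processing choice shows the affected minus normal value below 0 for both genes under each of 23 alternatives. Many of these only refit the same dog values or leave out dogs, which cannot turn the sign of groups that do not overlap.

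**Figure D2:**
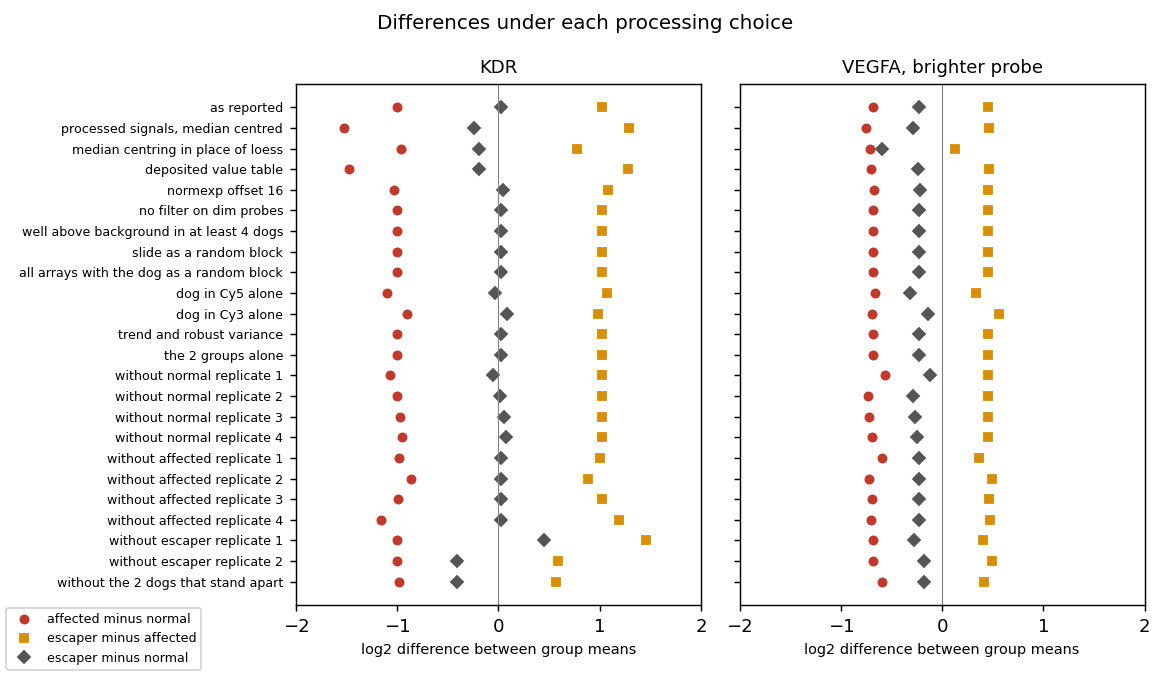
Log2 difference between group means (x axis) of KDR and the brighter VEGFA probe as reported and under each alternative (y axis), for 3 comparisons marked by shape and colour. Affected minus normal stays between −1.53 and −0.87 for KDR and between −0.75 and −0.57 for VEGFA. For KDR, escaper minus normal lies between −0.41 and 0.45.

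Normal dogs were compared with a reference that was itself normal RNA, yet they did not centre on it. KDR in normal dogs was 2.38-fold above the reference on average, and VEGFA 1.52-fold, whereas affected dogs stood at 1.19-fold for KDR and near it for VEGFA. The reference is 1 individual, so its level is a single value, and differences between groups do not depend on it.

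The other genes of the pathway were read through 7 lists holding 83 genes besides KDR and VEGFA. Of these, 65 had a probe under their symbol and 51 were tested. None passed in any comparison by limma, and 5 had an unadjusted p under 0.05 in affected minus normal, 8 in escaper minus normal and 3 in escaper minus affected. These are 9.8%, 15.7% and 5.88% of the 51, beside 13.0%, 19.1% and 5.65% of all genes tested. Their median differences were −0.02, −0.08 and 0.06 in that order of comparisons, beside 0.05, 0.00464 and −0.03 over all 6121 genes tested.

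Among the other ligands, VEGFB, which binds FLT1, was the one that most resembled VEGFA in affected dogs. Its log2 ratio was −0.18, 0.23, −0.15 and 0.03 in affected dogs 1 to 4, 0.69 and −0.52 in escapers 1 and 2, and 0.80, 0.42, 0.99 and 1.12 in normal dogs 1 to 4. The affected dogs lay below all normal dogs, as they did for 7.42% of all tested probes, and the escapers split. Without escaper 2 the escaper minus normal difference was −0.14, against −0.74 with it. The difference was −0.85 (SE 0.26) for affected minus normal with a limma adjusted p of 0.27, and −0.80 without affected 1 and escaper 2. That alternative was chosen after seeing the data.

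VEGFC, a ligand of the lymphatic receptor, averaged −0.49 ± 0.24 in affected dogs, 0.30 ± 1.40 in escapers and −0.42 ± 0.19 in normal dogs (SD). The escaper mean came from escaper 2, at 1.29, while escaper 1 stood at −0.69. Placental growth factor, PGF, averaged 0.17 ± 0.42 in affected dogs, 0.36 ± 0.52 in escapers and −0.11 ± 0.13 in normal dogs (SD). For PGF, escaper minus normal was 0.46, and 0.099 without escaper 2. Neither passed the test in any comparison.

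Of the co-receptors, NRP1 averaged 0.07 ± 0.34 in affected dogs, 0.35 ± 0.22 in escapers and 0.48 ± 0.28 in normal dogs (SD). NRP2 averaged −0.07 ± 0.29 in affected dogs, 0.19 ± 0.50 in escapers and −0.28 ± 0.12 in normal dogs (SD). Neither passed, with affected minus normal differences of −0.41 for NRP1 and 0.21 for NRP2, which were −0.25 and 0.065 without affected 1. Escaper minus normal was −0.13 and 0.47 for these genes, and −0.28 and 0.12 without escaper 2. The decoy receptor FLT1 exceeded background on 3 of 20 arrays. For the angiopoietin receptor TEK and its ligand ANGPT1 the counts were 0 and 1, so none of these 3 genes was tested. VEGFD, FLT4, ANGPT2 and CDH5 were not analysed here.

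**Figure D3:**
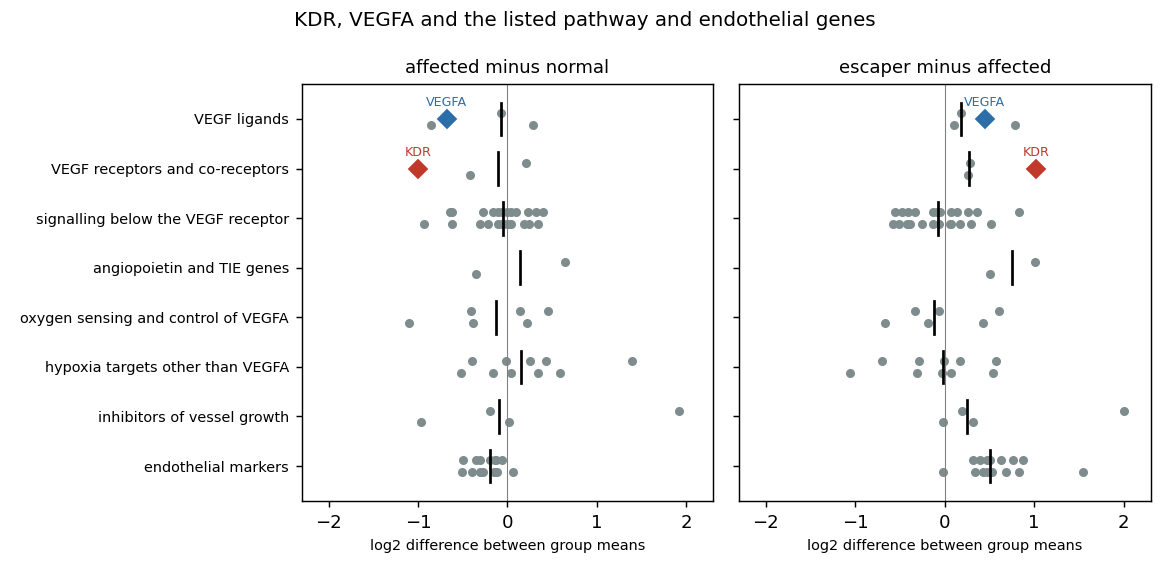
Log2 difference between group means (x axis) for each tested gene of 7 pathway lists and of the endothelial markers (rows), for affected minus normal and escaper minus affected. Grey points are genes, black bars list medians without KDR and VEGFA, and diamonds KDR and VEGFA. KDR lies at −1.0 and 1.02, outside the range of the endothelial markers in affected minus normal (−0.50 to 0.07).

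Downstream of the receptor, 24 of 35 listed signalling genes were tested, with median differences of −0.05, −0.15 and −0.07 in affected minus normal, escaper minus normal and escaper minus affected. PPP3CB, a catalytic subunit of the phosphatase calcineurin, had the lowest values at −0.93 and −1.48 against normal dogs. Its other 2 tested probes gave −0.51 and −0.24 for affected minus normal, and −0.50 and −0.37 for escaper minus normal. MAP2K1, a kinase of the MAP kinase cascade, stood at 0.40 in affected against normal dogs. NFATC3, a transcription factor that calcineurin activates, was at −1.04 in escapers against normal dogs. Without escaper 2, PPP3CB and NFATC3 stood at −0.65 and −0.69 against normal dogs. NOS3, the endothelial nitric oxide synthase, was at 0.83 and the kinase MAP2K2 at −0.52 in escapers against affected dogs, but at 0.0042 and −0.16 without escaper 2. None passed the test.

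The genes that control VEGFA did not move as a group, with 3 of 6 tested genes positive and 3 negative in affected minus normal. PPARGC1A averaged −0.97 ± 1.08 in affected dogs, −1.64 ± 1.84 in escapers and 0.13 ± 0.09 in normal dogs (SD). Its lowest values were −2.51 in affected 1 and −2.94 in escaper 2, and all 6 dystrophic dogs lay below the 4 normal dogs, as did affected dogs for 7.42% and escapers for 15.7% of all tested probes. Affected minus normal was −1.10, and −0.59 without affected 1. Escaper minus normal was −1.77, and −0.47 without escaper 2. ESRRA averaged −0.14 ± 0.30 in affected dogs, −0.32 ± 0.31 in escapers and 0.26 ± 0.23 in normal dogs (SD).

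HIF1A averaged −0.40 ± 0.25 in affected dogs, 0.21 ± 0.72 in escapers and −0.53 ± 0.13 in normal dogs (SD). EPAS1, the related hypoxia factor of endothelium, averaged −0.48 ± 0.33 in affected dogs, −0.06 ± 0.34 in escapers and −0.10 ± 0.22 in normal dogs (SD). Its dimmer probe gave −0.14 for affected minus normal and 0.11 for escaper minus affected, beside −0.39 and 0.43. EGLN2, an oxygen sensor that marks these factors for destruction, stood at 0.45 in affected against normal dogs, but its other probe gave −0.13, and without affected 1 the first gave 0.27. Without escaper 2, escaper minus affected of HIF1A and EPAS1 was 0.10 and 0.19, against 0.61 and 0.43 with it. For escaper minus normal of ESRRA and HIF1A it was −0.37 and 0.24, against −0.59 and 0.75. None of these genes passed.

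The 10 tested hypoxia targets other than VEGFA had a median of 0.15 in affected minus normal, 0.02 in escaper minus normal and −0.02 in escaper minus affected. PDK1, a kinase that restrains pyruvate oxidation, stood at 0.59 and the carbonic anhydrase CA9 at −0.39 in affected minus normal. NDRG1 and the collagen hydroxylase P4HA2 stood at 0.52 and 0.62 in escaper minus normal. BNIP3, a mitochondrial protein, stood at −1.06 and PDK1 at −0.70 in escaper minus affected. Without escaper 2, NDRG1 and P4HA2 stood at −0.0088 and 0.10 in escaper minus normal, and BNIP3 and PDK1 at −0.40 and −0.58 in escaper minus affected. Of 4 tested inhibitors of vessel growth, the tendon protein TNMD stood at 1.92 in affected and 2.23 in escaper dogs against normal dogs, and SEMA3F at −0.20 in affected against normal dogs. SERPINF1, a secreted inhibitor, stood at 1.04 in escapers against normal dogs and at 2.01 against affected dogs, where SEMA3F stood at 0.19. Single dogs weighed on both means, since affected 4 read 6.06 for TNMD and affected 1 read −3.98 for SERPINF1. Of 2 tested angiopoietin and TIE genes, TIE1, an endothelial receptor kinase, stood at −0.35, 0.15 and 0.51 and ANGPTL4, a secreted lipase inhibitor, at 0.64, 1.65 and 1.01 in the 3 comparisons. The dimmer TIE1 probe gave −0.041, 0.27 and 0.31. Without escaper 2, TNMD and SERPINF1 stood at 0.45 and 0.61 in escaper minus normal, and SERPINF1 and SEMA3F at 1.57 and 0.15 in escaper minus affected. TIE1 and ANGPTL4 then stood at −0.25 and 0.67 against normal dogs, and at 0.11 and 0.028 against affected dogs. Without affected 1, ANGPTL4 stood at 0.96 in affected minus normal, and SERPINF1 and BNIP3 at 0.89 and −0.70 in escaper minus affected. No gene in these lists passed.

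No endothelial marker passed the test in any comparison. Of 29 listed markers other than KDR, 15 were tested, and in affected minus normal 14 were negative, with a median of −0.20, beside 43.9% negative over all genes tested. At an unadjusted p under 0.05 there were 2 (13.3%, beside 13.0% of all genes tested): RAMP2, a receptor partner in endothelium, at −0.50 and CLEC14A, an endothelial surface lectin, at −0.40. The adhesion molecule PECAM1 stood at −0.31 and the clotting protein VWF at −0.15, which were −0.46 and −0.47 without affected 1. In bulk muscle, fewer endothelial cells and less RNA per cell cannot be told apart.

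The median of the 15 endothelial markers was −0.26, −0.31, −0.16 and −0.28 in affected dogs 1 to 4, −0.17 and 0.72 in escapers 1 and 2, and −0.18, 0.04, 0.12 and −0.06 in normal dogs 1 to 4. The affected and normal dogs overlapped in this median. Escaper 2 was highest both in the median and in KDR. Escaper 1 lay within the range of the affected dogs and of the normal dogs in the median. In KDR it lay above the affected and below the normal dogs. Taking the median from KDR within each dog left 0.16 to 1.02 in affected dogs, 0.98 to 1.01 in escapers and 1.20 to 1.46 in normal dogs. The affected dogs overlapped the escapers on this measure and stayed below the normal dogs.

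In escaper minus affected 14 of the 15 endothelial markers were positive, with a median of 0.51, beside 46.0% positive over all genes tested. FABP4, a fatty acid carrier of capillaries and fat, stood at 1.55 and the junction protein CLDN5 at 0.88, and neither passed. In escaper minus normal 13 were positive, with a median of 0.32, beside 50.4% positive over all genes, and these 2 genes stood at 1.41 and 0.74. Without escaper 2, FABP4 and CLDN5 stood at 0.70 and 0.32 against affected dogs, and at 0.56 and 0.19 against normal dogs. Without escaper 2 the medians were 0.13 against affected dogs and −0.21 against normal dogs.

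**Figure D4:**
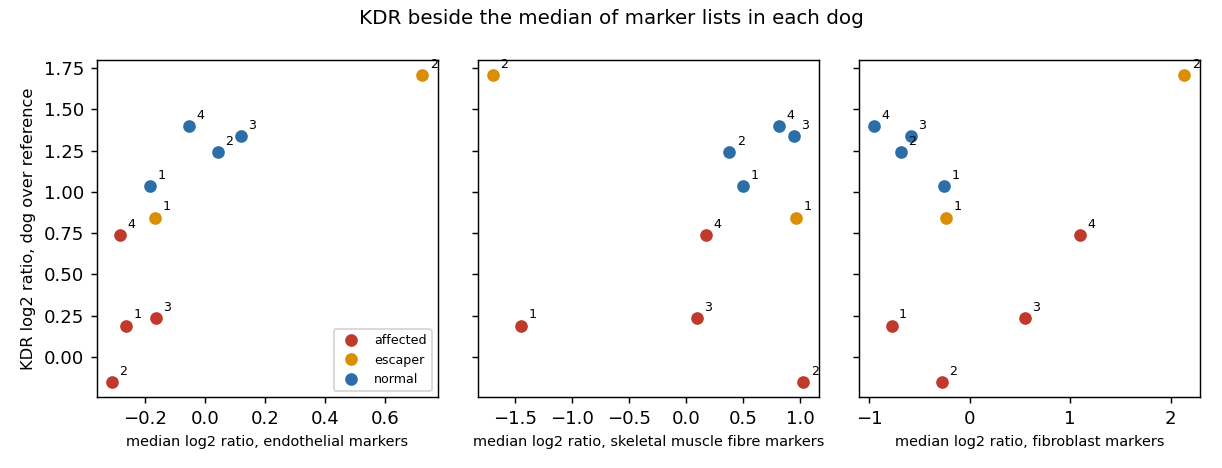
KDR log2 ratio (y axis) beside the median log2 ratio of 15 endothelial, 10 muscle fibre and 8 fibroblast markers (x axes) in each dog, numbered within affected, escaper and normal groups. Escaper 2 has the highest KDR, the highest endothelial and fibroblast medians and the lowest fibre median, which includes 4 markers saturated on most arrays, while affected 1 has a low fibre median with low KDR.

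Markers of other cell types are given beside these values, and their part in the KDR and VEGFA differences was not tested. The median of 10 fibre markers ranged over −1.44 to 1.03 in affected dogs, −1.69 to 0.97 in escapers and 0.38 to 0.95 in normal dogs. Without the 4 that were saturated on most arrays it ranged over −1.36 to 0.95, −1.99 to 0.83 and 0.42 to 1.19 in the same groups. The 8 macrophage markers ranged over −1.13 to −0.13, −1.40 to 0.85 and −1.82 to −1.37 in the same groups, and 7 of 8 were positive in affected minus normal. The 8 fibroblast markers ranged over −0.78 to 1.10, −0.23 to 2.14 and −0.95 to −0.25, and 8 of 8 were positive in affected minus normal, beside 56.1% of all genes tested.

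No marker passed in any comparison. In affected minus normal, the extremes by p were the fibre genes CKMT2 at −2.11 and PYGM at −1.85, the macrophage genes LGALS3 at 2.48 and ITGAM at 0.69, and the collagens COL1A2 at 1.74 and COL3A1 at 1.88. The mural cell genes ABCC9 and KCNJ8 stood at −0.66 and −0.36, the lymphatic genes PDPN and PROX1 at 0.92 and 0.30, and the fat genes CFD and LEP at 0.93 and −0.15. Without affected 1, COL1A2 and COL3A1 stood at 2.66 and 2.86, ABCC9 at −0.41, PDPN at 0.19 and LEP at 0.18.

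In escaper minus normal, CKMT2 and PYGM stood at −2.87 and −2.53, LGALS3 and ITGAM at 2.55 and 1.19, and COL1A2 and COL3A1 at 3.43 and 3.71. ABCC9 and TAGLN, a smooth muscle protein, stood at −0.77 and 0.59, PDPN and PROX1 at 0.59 and 0.17, and CFD and the lipase LPL at 1.55 and −1.15. Without escaper 2, CKMT2 and PYGM stood at −0.94 and −1.46, LGALS3 and ITGAM at 1.27 and 0.60, and COL1A2 and COL3A1 at 2.24 and 2.48. ABCC9 and TAGLN then stood at −0.13 and 0.23, PDPN and PROX1 at 0.019 and 0.37, and CFD and LPL at 0.47 and −0.047.

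In escaper minus affected, the slow myosin MYH7 and PYGM stood at −0.78 and −0.68, ITGAM and the adaptor TYROBP at 0.50 and 1.31, and COL1A2 and COL3A1 at 1.69 and 1.83. The mural genes MCAM and TAGLN stood at 0.33 and 0.57, PDPN and PROX1 at −0.33 and −0.13, and CFD and LPL at 0.62 and −0.91. Without escaper 2, MYH7 and PYGM stood at 0.22 and 0.39, ITGAM and TYROBP at −0.084 and 0.43, and COL1A2 and COL3A1 at 0.50 and 0.60. MCAM and TAGLN then stood at 0.14 and 0.21, PDPN and PROX1 at −0.90 and 0.070, and CFD and LPL at −0.47 and 0.20. Without affected 1, COL1A2 and COL3A1 stood at 0.77 and 0.85, PDPN at 0.40, and MYH7 and PYGM at −1.19 and −1.12.

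Across the 10 dogs KDR and VEGFA themselves had a Pearson r of 0.66, which placed VEGFA 129th of 6120 genes by likeness to KDR. Among the 5 genes whose log2 ratios were most like those of KDR were TMEFF1 (r = 0.92), the zinc finger gene ZNF395 (r = 0.90), CMTM8 (r = 0.87) and the steroid hydroxylase CYP21A2 (r = 0.86). TMEFF1 was well above background on 6 of 20 arrays. Among the 5 most like VEGFA were TEX264, a receptor for turnover of the endoplasmic reticulum (r = 0.97), the membrane anchor ANK2 (r = 0.95), NXN (r = 0.94) and the cytokine receptor LIFR (r = 0.94). All of these values share the reference and the 10 dogs, whose groups alone can raise r, and they are given as descriptions.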

How the data were processed

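Muscle RNA of 10 dogs was hybridised to canine Agilent arrays of 2 colours, 20 arrays on 5 slides. Feature Extraction 9.5.3.1 quantified the scans, per the file headers. Scanner output as deposited holds mean and background intensity per spot, and processed intensity after background and dye correction, per the file headers. Log2 ratios fill the deposited value table, and equalled processed dog over reference on every array, so that scale and direction are known. Its column medians ran between −0.16 and 0.27, and the reason for the missing centring is not given in the sources used here.

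From mean and background signals, limma 3.58.1 in R 4.3.3 applied normexp with an offset of 50 and loess within arrays, with control spots at no weight. Flagged spots were left out, ratios were turned to dog over reference, and the 2 arrays of a dog were averaged, so the dog is the replicate. Probes well above background on both arrays of at least 2 dogs, with a value in every dog, were tested (16008). One fit of the 3 groups gave Benjamini-Hochberg adjusted p-values with a threshold of 0.05, and the fit was tested on simulated data. The number of arrays limits the precision, and 30.5 to 60.2% of probes were well above background per array. The highest was affected 4 in Cy5, with a median signal of 5.28 times background, and the next highest was affected 1 in Cy5 at 43.6%. On the other arrays the median signal was 1.67 to 2.70 times background. KDR in affected 4, the highest of the affected dogs, read 0.64 in Cy5 and 0.84 in Cy3. The labels do not say how the dogs are related.

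Symbols came from the array files and from RefSeq names of assembly UU_Cfam_GSD_1.0. A gene is its brightest tested probe. The members and the 14 gene lists were chosen with earlier results of these data known. Genes named are those of a fixed set of VEGF genes, the 2 with the smallest p of each list and comparison, and the 5 most correlated with KDR and with VEGFA. Some genes that this rule names are not reported here. Alternatives covered background, normalisation, filters, blocks, dyes, the variance model, the groups fitted and each dog left out.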

Additional observations from a re-analysis of the deposited data

Results flagged for a closer look

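None of the member probes had a dog far from the rest of its group of 4. Among the 102 sets of 4 dogs examined for the members and the named genes, 6 had 1 dog far outside the others, and chance alone gives about 1 in 20. In affected 1 the lymphatic marker PDPN stood at 1.77 (the others −1.30 to −0.89) and BNIP3 at 0.62 (−0.93 to −0.72). In normal 1 the calcineurin subunit PPP3CB stood at 1.60 (the others 0.87 to 0.89), the mural marker KCNJ8 at −0.21 (0.22 to 0.28) and the macrophage marker ITGAM at −1.74 (−1.17 to −1.10). In normal 3 the ligand VEGFC stood at −0.14 (the others −0.52 to −0.50).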

How the results depend on the processing

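The affected minus normal differences of KDR and VEGFA kept their sign under 23 alternatives, and so did both escaper minus affected differences. For both genes every affected dog lay below every normal dog under the 20 alternatives that give dog values. Escapers and affected dogs overlapped in 2 of the 20 for each gene, all of them among the alternatives that could create an overlap. Escapers and normal dogs overlapped in 2 of 20 for VEGFA, again among those, and in 17 of 20 for KDR, as in the main setting. KDR affected minus normal was −1.53 on processed signals and −1.48 in the deposited table. With median centring VEGFA was −0.59 for escaper minus normal and 0.12 for escaper minus affected. Leaving out 1 dog at a time gave KDR values of −0.41 to 0.45 for escaper minus normal and 0.59 to 1.46 for escaper minus affected. Without both affected 1 and escaper 2, an alternative chosen after seeing the data, these were −0.41 and 0.57. The cause of these shifts was not tested.

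Counts of probes passing depended strongly on the setting. Affected minus normal gave 29 on processed signals, 31 in the deposited table, 114 with the slide as a random block (estimated correlation −0.27), 362 with all arrays and the dog as a block, 7 in Cy5 alone, 1 in Cy3 alone, 113 with the 2 groups alone, 0 to 113 with 1 dog left out and 899 without the pair. Escaper minus normal gave 4 on processed signals and 4 in the table, 1 without the filter, 522 and 1067 under the blocks, 0 to 3920 with 1 dog left out and 20 without the pair. Escaper minus affected gave 0 to 1755 with 1 dog left out and 12 without the pair. The highest counts of both escaper comparisons came without escaper 1, with 1 escaper left whose spread is taken from the other groups, and the 113 came without either escaper. Pathway genes passing were 1 and 3 under the blocks and 0 to 13 with 1 dog left out for escaper minus normal, 0 to 8 for escaper minus affected, and 1 without the pair for affected minus normal.

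Signs turned in 36 cases of listed genes, none of which passed the test. Members were counted there only where their groups did not overlap. Outside that count, KDR escaper minus normal, at 0.02 as reported, was negative in 7 of 23 alternatives. The dimmer VEGFA probe, at 0.02 for escaper minus affected, was negative in 5 of 22. In escaper minus normal, median centring gave TIE1 −0.11, EPAS1 −0.030 and VWF −0.21, Cy5 alone EPAS1 −0.25 and Cy3 alone NRP1 0.025. In escaper minus affected, VEGFB was −0.087 with median centring and −0.0052 in the table, and SEMA3F was −0.0014 in Cy5. The rest of the 36 cases came with 1 dog left out, in most of them escaper 2. They are given as the lowest and highest differences over each dog left out in turn. For escaper minus normal they were VEGFC −0.27 to 1.71, NRP1 −0.28 to 0.024, TIE1 −0.25 to 0.55, NDRG1 −0.0088 to 1.05, PROX1 −0.032 to 0.37 and EPAS1 −0.20 to 0.28. Others there were PECAM1 −0.68 to 1.44 and VWF −0.35 to 0.98. For escaper minus affected they were VEGFC −0.20 to 1.78, PGF −0.18 to 0.55, NRP2 −0.090 to 0.61, PROX1 −0.33 to 0.070, PDPN −0.90 to 0.40 and MYH7 −1.79 to 0.22. Others there were PYGM −1.75 to 0.39, ITGAM −0.084 to 1.08, LPL −2.01 to 0.20, CFD −0.47 to 1.70, ESRRA −0.40 to 0.032 and PECAM1 −0.37 to 1.75. Others there were PPARGC1A −1.97 to 0.63, VEGFB −0.50 to 0.71 and VWF −0.20 to 1.14. For affected minus normal they were LEP −0.39 to 0.18, VEGFC −0.18 to 0.021 and VWF −0.47 to 0.066. No paired analysis was possible because the dogs carry no shared numbers in the labels. Of the members, the dimmer VEGFA probe had the lowest signal over background and did not pass the stricter filter, so it has no fitted difference there.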
